A study of Mus musculus with 15 samples.

Results

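Enho encodes adropin, and its liver RNA is described here in 15 ovariectomized female C57BL/6 mice. Enho was the row of that name in the deposited table, 1 gene of 2545. It was taken because earlier results of the same table showed a high level with conjugated estrogens that was lower when bazedoxifene was added. It was thus selected on its own log2 values over the groups, and these are given as a description, with no test. All 15 mice were fed a high-fat diet from 8 weeks of age and ovariectomized at 10 weeks, which removes the main source of estrogen. They were treated for 6 weeks, 3 sequenced mice in each of 5 groups. The groups were given vehicle (Veh), E2 (estradiol, 5 μg per kg per day), CE (conjugated estrogens, a mixture of estrogens and their metabolites, 2.5 mg per kg per day), BZA (bazedoxifene, 3 mg per kg per day) or both (CE+BZA). Bazedoxifene is a selective estrogen receptor modulator, a compound that acts as an estrogen in some tissues and blocks estrogen in others. The daily doses, as stated in the methods, differed between the ligands, and by the methods E2 was given in pellets and CE by osmotic minipump. The methods also give the estradiol content of the pellets, and the stated E2 dose was not checked against it. Levels are thus set side by side and not compared at matched doses or delivery.

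Adropin is a small secreted peptide made mainly in liver and brain. It takes part in energy balance, and liver Enho is known to follow feeding state, dietary fat and liver X receptor activity. In muscle, adropin favors the use of glucose over fatty acids, and in endothelium it activates nitric oxide synthesis. In the GRCm38 (mm10) build, GENCODE M21 places Enho (ENSMUSG00000028445) on chromosome 4, chr4:41638144-41640324, on the minus strand. It has 1 transcript with 2 exons of 411 and 858 bases, separated by an intron of 912 bases. The 228 coding bases (76 codons before the stop) lie within exon 2, and the rest of both exons is untranslated. The last 15 bases of Enho overlap the last 15 bases of Dnaic1, which lies on the plus strand.

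The values are on a log2 scale, relative to the median of a gene over the 15 mice, so 0 is the Enho level of the median mouse and 1 is a level 2 times as high. Such values cannot be compared between genes as levels, and the reads behind them are unknown. The 2545 genes are a part of the mouse transcriptome. Only 2 of 12 fixed hepatocyte markers (Trf and Ass1) were listed and relative values do not show how abundant a gene is, so the liver label was not checked this way. The mean of these 2 was lowest in the 3 Veh mice, at −2.14 in mouse 7, −0.39 in mouse 1 and −0.38 in mouse 4. It lay between −0.37 and 0.33 in the 12 treated mice. Enho too was lower in all Veh mice than in all treated mice. Among the Veh mice the order was reversed, with Enho highest in mouse 7 and lowest in mouse 4. The CE+BZA mean of the 2 markers (0.11) was also above that of BZA (0.01), unlike for Enho. Pancreatic acinar markers (13 of 14 listed) averaged 5.81 in BZA mouse 3 and −0.09 to 0.36 in the other mice. Adipocyte markers (8 of 14 listed) were also highest there, at 3.33.

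Enho was lowest in Veh, at −1.56 in mouse 7, −2.18 in mouse 1 and −3.09 in mouse 4. In CE, it was 1.36 in mouse 7, 1.03 in mouse 6 and 2.10 in mouse 3, the 3 highest values of the 15 mice. In E2, Enho was 0.58 in mouse 4, 0.85 in mouse 3 and 0 in mouse 5. All 3 E2 mice lay between the Veh mice and the CE mice. In BZA, it was 0.84 in mouse 3, 0.34 in mouse 4 and −1.23 in mouse 1, the widest spread of the 5 groups. In CE+BZA, it was −0.84 in mouse 1, −0.81 in mouse 2 and −0.72 in mouse 3, and these mice were the most alike. From the lowest to the highest mouse, Enho spanned 5.20 on the log2 scale, a 36.6-fold range. All 12 treated mice were above all 3 Veh mice, which was the case in 32 of the 2545 genes (1.26%).

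**Figure D1:**
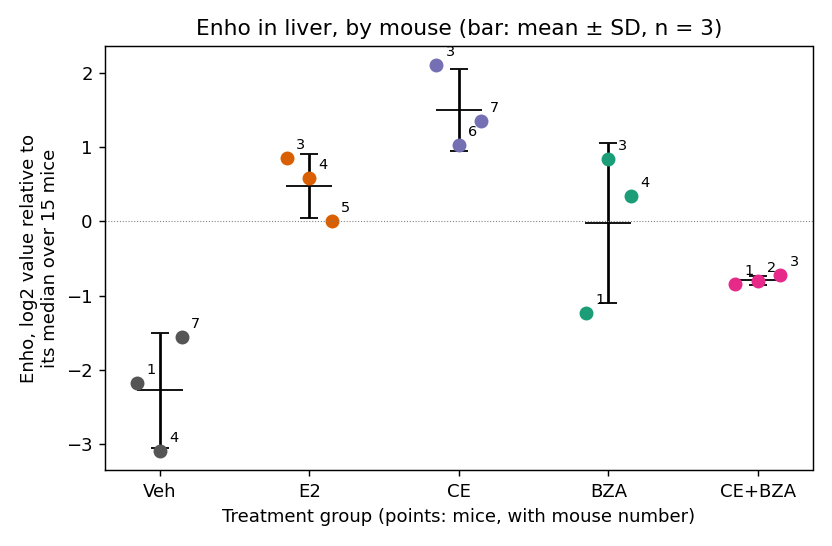
Enho in each of the 15 mice (points, labelled with the mouse number) by treatment group, as a log2 value relative to the median mouse, with the group mean and SD (n = 3). The Veh mice lie at −1.56 and below, the CE mice at 1.03 and above, and the CE+BZA mice close together between −0.84 and −0.72.

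The group means gave the order CE, E2, BZA, CE+BZA and Veh from highest to lowest. They were 1.498 ± 0.55 in CE, 0.48 ± 0.43 in E2, −0.02 ± 1.08 in BZA, −0.79 ± 0.06 in CE+BZA and −2.27 ± 0.77 in Veh (SD, n = 3 mice in each group). CE and E2 were neighbors in this order whose mice did not overlap, with a gap of 0.19 between the lowest CE and the highest E2 mouse. E2 and BZA overlapped, and BZA minus E2 was −0.50 (SE 0.58), smaller than its standard error. BZA and CE+BZA overlapped as well, with a difference of −0.77 (CE+BZA minus BZA, SE 0.58). CE+BZA and Veh did not overlap, and the gap between them was 0.72. The order of the 5 means was shared by 35 of the 2545 genes, Enho included (1.38%). Of these 35, Enho and Alox12, a lipoxygenase gene, were the 2 in which all treated mice were also above all Veh mice.

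Enho was 3.77 (SE 0.58) higher in CE than in Veh on the log2 scale, a 13.7-fold difference and the largest increase of CE over Veh among the 2545 genes. The next 2 genes in that order, named after their values were seen, were S100a8 at 3.70 and S100a9 at 3.67, both abundant in neutrophils. The standard error is that of a limma model fitted to all 15 mice, which gives Enho the same standard error in every pair of groups. In E2, Enho was 2.75 (SE 0.58) above Veh, a 6.73-fold difference, and ranked 5 of 2545. In BZA, it was 2.25 (SE 0.58) above Veh, a 4.77-fold difference, and ranked 38. In CE+BZA, the difference from Veh was 1.48 (SE 0.58), or 2.80-fold, and the rank was 180. Enho was thus higher than Veh with every ligand, and least so with the combination. CE was above Veh with no overlap of the mice, as in 13% of all genes in the table, and CE+BZA was above Veh with no overlap, as in 14.8%. The lowest Enho value was held by 1 mouse, Veh mouse 4. In 1045 genes, 2 or more mice shared the lowest value, and whether the value of Veh mouse 4 is such a lower limit cannot be told from 1 mouse.

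Adding bazedoxifene to conjugated estrogens went with a lower Enho level than CE alone. The 3 CE+BZA mice were all below the 3 CE mice, by 1.76 at the closest, and 9.82% of all genes had such a gap in this direction. CE+BZA minus CE was −2.29 (SE 0.58), a 4.89-fold lower level. The difference from Veh in CE+BZA was 39.3% of that in CE and 65.8% of that in BZA, on the log2 scale. The differences of CE and BZA from Veh summed to 6.03, while that of CE+BZA was 1.48, so the combination deviated from the sum by −4.54 (SE 0.82). Put another way, Enho was 3.77 higher with CE than without it in mice not given BZA, and differed by −0.77 with CE from without it in mice given BZA. CE+BZA minus E2 was −1.27 (SE 0.58), with no overlap of the mice (8.49% of all genes). Enho in CE was 1.52 (SE 0.58) above BZA, with no overlap (7.58% of all genes), and 1.02 (SE 0.58) above E2 (7.94%). These contrasts share mice, so they are not separate pieces of evidence.

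**Figure D2:**
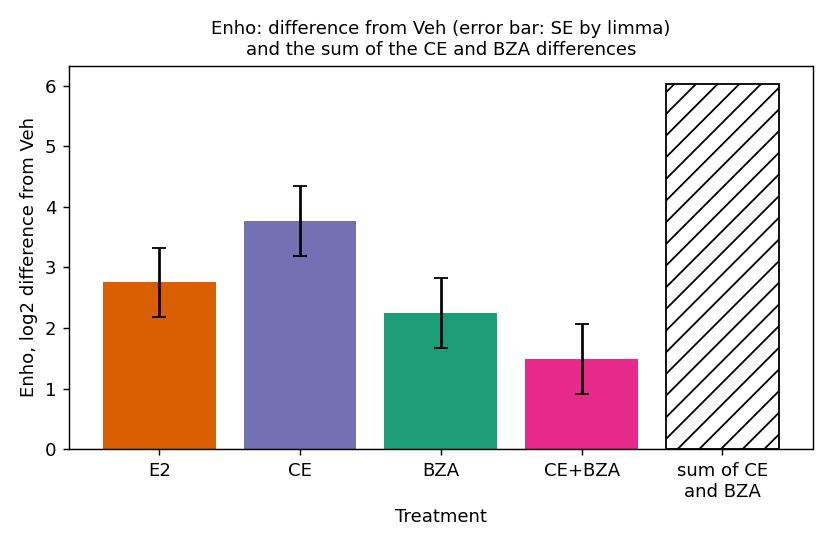
Log2 difference of Enho from Veh in each treatment (bars from 0, error bars SE by limma), beside the sum of the CE and BZA differences (hatched). The CE+BZA bar, at 1.48, is below each single ligand and far below the sum of 6.03.

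The Enho differences that involve BZA had the widest ranges when single mice were left out. Without BZA mouse 3, which carried the pancreatic and adipocyte markers, BZA was 1.83 above Veh, and without BZA mouse 1 it was 2.86 above. CE+BZA minus BZA was −1.38 without BZA mouse 1 and −0.34 without BZA mouse 3, against −0.77 with all mice. CE minus BZA was 0.91 without BZA mouse 1 and 1.95 without BZA mouse 3. BZA minus E2 was 0.11 without BZA mouse 1, against −0.50 with all mice, so the order of these 2 groups changed. CE minus Veh ranged from 3.36 to 4.13 and CE+BZA minus CE from −2.52 to −1.99 when each mouse was left out in turn. CE minus Veh was 3.36 without Veh mouse 4, the mouse with the lowest Enho.

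Of the 6 listed genes nearest to Enho on its chromosome, the overlapping Dnaic1 was the one whose level followed it. Of 92 RefSeq genes within 1 Mb of Enho, 8 were in the table, and within 100 kb only Dnaic1 was (1 of 8 genes). Dnaic1, which encodes a dynein arm protein of motile cilia, was at its lowest value of −0.04 in 7 of the 15 mice. It was 3.05 in CE mouse 3, which also had the highest Enho, and 1.93 in CE mouse 7, but −0.04 in CE mouse 6, where Enho was 1.03. It was 0.35 to 1.36 in the E2 mice, at −0.04 in 2 of the 3 BZA mice and at most 0 in the CE+BZA mice. Dnaic1 in CE was 1.63 (SE 0.63) above Veh, and CE+BZA minus CE was −1.67 (SE 0.63). Neither passed by limma with Benjamini-Hochberg adjustment (FDR 0.234 and 0.256). These differences depend on how low values were set in the table, since 4 of the 7 mice at the lowest value were from Veh or CE+BZA. Dnaic1 and Enho had a Pearson r of 0.67 and a Spearman rho of 0.61 over the 15 mice, against −0.20 to −0.12 for the r of the other 5 neighbors. The labels name a stranded library kit, and whether the counting used the strand is not given in the sources used here. Reads over the shared 15 bases may have been counted for either gene, and their part in the Enho values was not tested.

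The next listed genes on that side were the long noncoding Gm12404, 117 kb away, and Kif24, a kinesin gene 173 kb away. They differed between CE and Veh by −0.03 (SE 0.70) and −0.21 (SE 0.87), against 3.77 for Enho. On the other side, Gm13304, Ccl21b and Gm10591 lay 474, 533 and 972 kb from Enho. They belong to a cluster of near-identical chemokine genes between which reads may have been split. Their differences between CE and Veh were −0.27 to −0.39 and none of these 5 neighbors passed (FDR 0.809 to 1 by limma).

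**Figure D3:**
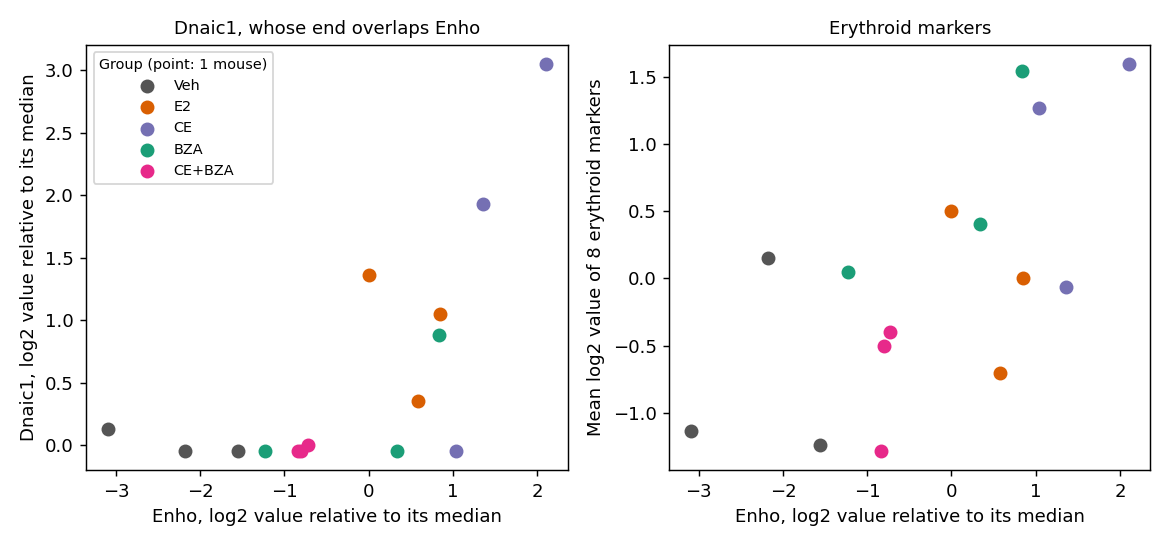
Each point is a mouse, with its Enho log2 value on the x axis. The y axis is Dnaic1 (left) or the mean log2 value of 8 erythroid markers (right). Dnaic1 is at most 0.13 in the Veh and CE+BZA mice, and the mean of the markers is −0.40 or below in all CE+BZA mice.

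Red cell markers moved with Enho in part. Of 13 fixed erythroid genes, 8 were listed, among them the globins Hba-a1, Hba-a2, Hbb-b1 and Hbb-b2, the membrane protein Slc4a1 and the erythroid Trim10. Their mean was −0.07 to 1.60 in CE, 0.05 to 1.54 in BZA and −0.70 to 0.50 in E2. In CE+BZA it was −1.28 to −0.40 and in Veh −1.24 to 0.15. Unlike for Enho, the group mean was alike in CE+BZA (−0.73) and Veh (−0.74), and higher in BZA (0.66) than in E2 (−0.07). CE was higher than Veh in 7 of the 8 at a fold change above 2 and an unadjusted p under 0.05 (10.1% of all genes in the table), and in none at an FDR under 0.05 by limma (0.157% of all genes). CE+BZA was lower than CE in 5 of the 8 by the same unadjusted rule (7.31% of all genes), again with none at an FDR under 0.05 by limma (0.0393% of all genes). The median difference of the 8 was 1.60 in CE against Veh and −1.55 in CE+BZA against CE, where the medians over all genes were 0.06 and 0. These 8 genes mark the same cells and were measured in the same mice, so they are not separate pieces of evidence. Trim10 was at its lowest value in all Veh and CE+BZA mice. In the mouse CE 7, Enho was 1.36 while the mean of the erythroid markers was −0.07, below the 0.15 of Veh mouse 1, where Enho was −2.18. A difference in the number of such cells cannot be told apart from one in RNA per cell, and the part of red cells in the Enho values was not tested.

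Lymphocyte markers moved with Enho in part. These genes (4 of 13 listed) averaged 0.40 to 0.83 in CE, −0.51 to 0.11 in CE+BZA and −0.63 to 0.12 in Veh. All CE mice were thus above all Veh and CE+BZA mice, as for Enho. Single genes had such gaps in 13% (CE above Veh) and 9.82% (CE+BZA below CE) of the table. Unlike for Enho, the E2 mice (−0.31 to 0.18) and CE+BZA mice overlapped Veh, and BZA mouse 3 was the highest, at 1.18. By the unadjusted rule, 1 of the 4 was higher in CE than in Veh (10.1% of all genes). In CE+BZA, 1 was lower than in CE (7.31%). Over the 15 mice, the lymphocyte mean had a Pearson r of 0.61 and a Spearman rho of 0.62 with Enho, and the erythroid mean an r of 0.66 and a rho of 0.57. The mean of the 2 hepatocyte genes had an r of 0.49 and a rho of 0.62 with Enho. After the group means were subtracted, r was 0.41 for the lymphocyte, 0.33 for the erythroid and −0.16 for the hepatocyte mean. Adipocyte genes (8 of 14) averaged 0.70 to 0.75 in Veh and −0.62 to −0.01 in CE, opposite in direction to Enho. Over the 15 mice, however, the adipocyte mean had a Pearson r of only −0.22 with Enho (Spearman rho −0.59). After the group means were subtracted, its r was 0.34. Of these 8 genes, 4 were lower in CE than in Veh and 2 higher, with a median difference of −0.18. The 3 that passed the unadjusted rule, all lower in CE (8.45% of all genes), were Cfd, Plin4 and Car3. Macrophage genes (5 of 15) averaged −0.27 to 1.72 in CE and −0.35 to 0.68 in Veh. Stellate cell (2 of 12) and cholangiocyte genes (3 of 8) overlapped between CE and Veh, and 0 of 10 endothelial genes were in the table. Their part in the Enho values was not tested.

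The genes most like Enho over the mice were found by Pearson r of the log2 values, with no p, since the genes share the 15 libraries. Fam25c had the highest r, 0.84, followed by Rpusd1, a pseudouridine synthase domain gene (0.83). An immunoglobulin kappa variable gene (0.81), the immunoglobulin heavy chain gene Ighg2b (0.79) and the potassium channel subunit Kcnab2 (0.78) came next. Reads may be split between the kappa variable gene and near-identical family members. Their Spearman rho with Enho was 0.64 to 0.86. Without Veh mice 4 and 1, whose Enho was farthest from the median, r was 0.66 to 0.81. After the group means were subtracted, Fam25c kept an r of 0.79 with Enho and the kappa variable gene had one of 0.37. The highest such r in the table was 0.87, in a gene that is not among these 5. Fam25c was −1.11 to −0.63 in Veh, 0.37 to 0.94 in CE and −0.69 to 0.15 in CE+BZA, so its CE mice too were above all CE+BZA mice. The kappa variable gene was at its lowest value in 4 mice. The difference between CE and Veh was 1.02 to 2.62 in these 5 genes, each smaller than in Enho, and none passed (FDR 0.146 to 0.259 by limma).

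The genes most opposite to Enho were the muscle tropomyosin gene Tpm2 (r −0.81), Mogat1 (−0.80) and the carboxylesterase Ces1e (−0.79). Mogat1 makes diacylglycerol from monoacylglycerol, a step in triglyceride synthesis. It was 2.04 to 2.31 in Veh, where Enho was lowest, and −1.11 to 0.18 in CE. It fell by 2.76 (SE 0.50) in CE against Veh (FDR 0.0352 by limma, and 0.116 to 0.163 with any 1 Veh mouse left out). Between CE+BZA and CE it differed by 0.39 (SE 0.50, FDR 0.756 by limma), against −2.29 for Enho. Of the other 2544 genes, 35 had an r with Enho above 0.7 and 23 an r below −0.7.

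**Figure D4:**
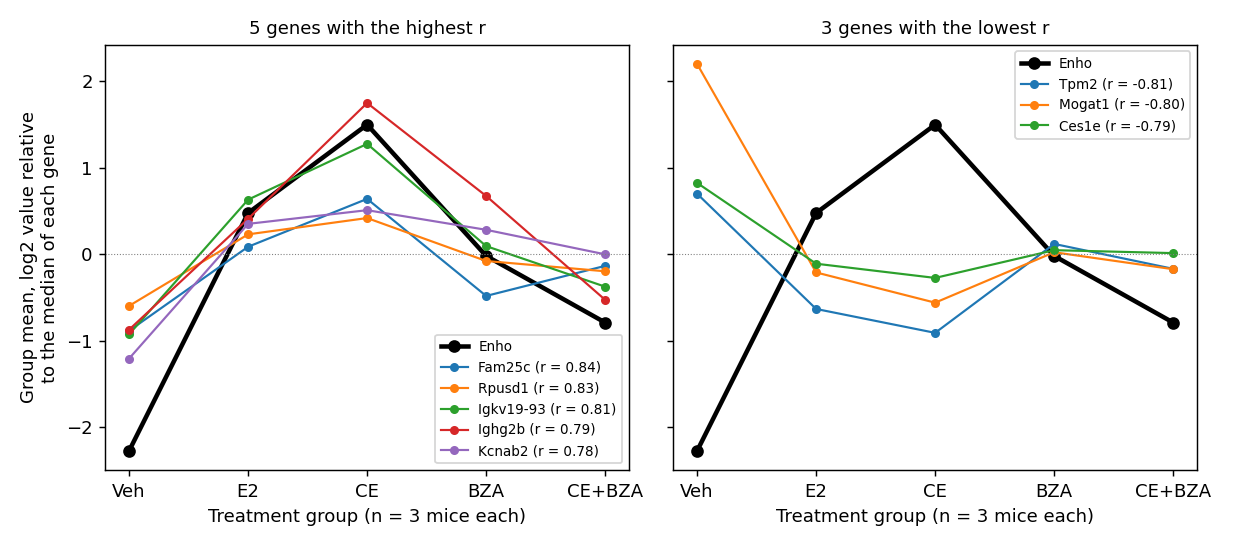
Group means (n = 3 mice each, log2 relative to the median of each gene) of Enho in black, with the 5 genes of the highest Pearson r on the left and the 3 of the lowest on the right. All 5 genes on the left are highest in CE and lowest in Veh like Enho, over a smaller range, and Mogat1 on the right is highest in Veh.

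Few genes of the pathways around adropin were in the table. Of 9 genes tied to adropin signaling, Pdk4 and Cd36 were listed, which limit glucose oxidation and take up fatty acids and which adropin lowers in muscle. Where Enho was 3.77 higher in CE than in Veh, Pdk4 differed by −1.10 (SE 0.62, unadjusted p = 0.0924 by limma). Cd36 differed by −1.03 (SE 0.46, unadjusted p = 0.0385, FDR 0.259 by limma). Of 36 nuclear and estrogen receptors and coactivators, 3 were listed, and 0 passed either rule in CE against Veh or CE+BZA against CE by limma. Over all genes, 18.6 and 14.4% passed the unadjusted rule. Pparg, which drives fat storage, differed by −0.80 between CE and Veh, Hnf4g by −0.60 and Nr4a1 by 1.06. Neither the liver X receptors nor the ROR receptors, which are known to act on Enho, were among the listed receptors, nor was Esr1.

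Clock genes were listed more often, 7 of 19. By the unadjusted rule, CE was higher than Veh in 2 of the 7 and lower in none (10.1 and 8.45% of all genes), and no gene passed the FDR by limma. Dbp, an output transcription factor of the clock, was 1.31 (SE 0.52) and the repressor Bhlhe41 1.48 (SE 0.68) higher in CE. Nr1d1, which encodes REV-ERBα, differed by 1.31 (SE 0.73, unadjusted p = 0.0896 by limma). In CE+BZA against CE, Dbp differed by −1.06 and Nr1d1 by −1.01, the direction of Enho, and neither passed. Cry1 differed by −0.43 between CE and Veh and was 1.52 (SE 0.57) higher in CE+BZA than in CE by the unadjusted rule. Per1, Npas2 and Usp2 differed between CE and Veh by 1.02, 0.43 and 0.32. Between CE+BZA and CE they differed by 0.78, 0.05 and 0.99, against the direction of Enho. In that comparison, 4 of the 7 clock genes had a positive difference and 3 a negative one.

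Of 52 genes of lipid synthesis and of SREBP and liver X receptor targets, 13 were listed. In CE against Veh, 4 of the 13 were lower by the unadjusted rule and 0 higher (8.45 and 10.1% of all genes), and Mogat1 alone passed the FDR (0.157% of all genes). Vldlr, a lipoprotein receptor, was −1.57 (SE 0.47) and the lipid droplet coat gene Plin4 −1.96 (SE 0.59) in CE against Veh. Plin4 and the fatty acid synthase gene Fasn were higher in CE+BZA than in CE, by 1.82 (SE 0.59) and 1.58 (SE 0.65). Of 27 genes of glucose handling, 9 were listed. The glucose-6-phosphatase gene G6pc and Ppp1r3b, a glycogen targeting subunit, differed by −1.25 (SE 0.54) and −1.20 (SE 0.53) in CE against Veh and by 2.02 and 1.42 in CE+BZA against CE, in each case opposite to Enho. These were the only 2 of the 9 that passed by the unadjusted rule in either comparison (18.6 and 14.4% of all genes). None of the 9 passed the FDR by limma.

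**Figure D5:**
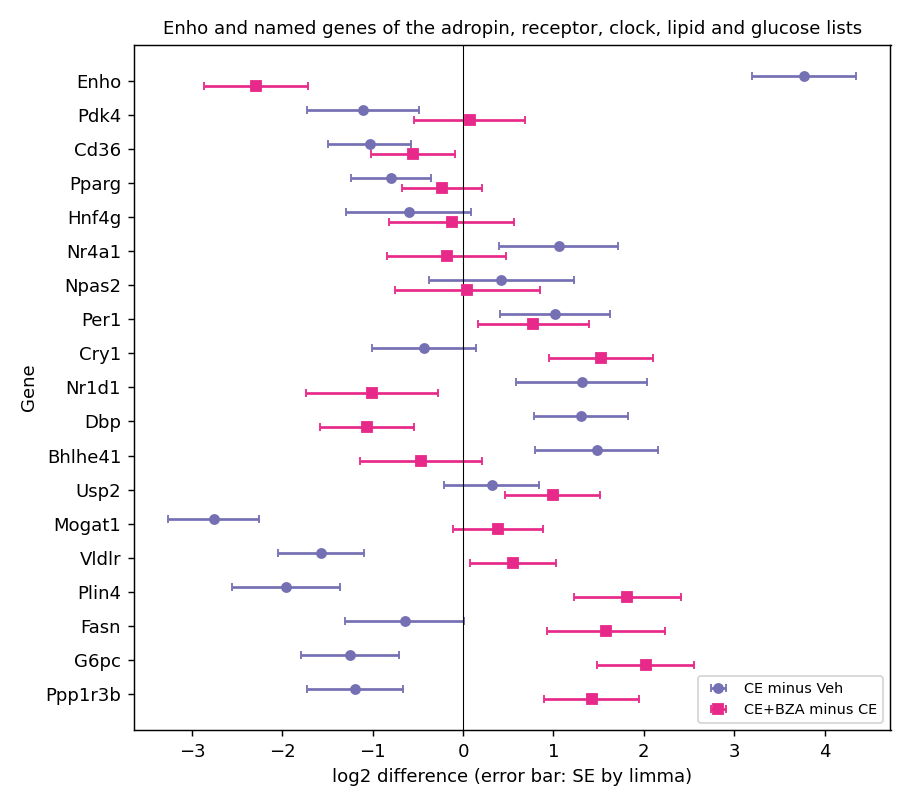
Log2 differences of Enho and of 18 named genes in CE against Veh (circles) and CE+BZA against CE (squares), with SE by limma. Enho has the largest difference between CE and Veh shown. G6pc, Ppp1r3b, Plin4, Mogat1, Vldlr, Fasn, Cry1 and Pdk4 lie on the opposite side of 0 from Enho in both comparisons.

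Of 49 other secreted regulators of energy balance, 16 were listed, and none had the size of the Enho increase in CE. By the unadjusted rule, 3 were higher and 3 lower in CE than in Veh (10.1 and 8.45% of all genes). Serpina12, which encodes vaspin, was 1.35 (SE 0.50) higher in CE than in Veh and differed by −1.23 (SE 0.50) between CE+BZA and CE, the directions of Enho. Bmp7 was 1.74 (SE 0.55) higher in CE and a further 1.22 higher in CE+BZA than in CE, unlike Enho. Tsku was −1.38 (SE 0.63) in CE against Veh and 2.59 in CE+BZA against CE. The adipokine Cfd was −5.16 (SE 1.08) in CE against Veh. None of the 16 passed the FDR in these 2 comparisons by limma.

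Genes with a known sex bias or estrogen response in other settings were also set beside Enho. Of 45 female-biased liver genes, 24 were listed. In CE against Veh, 4 were higher and 7 lower by the unadjusted rule (10.1 and 8.45% of all genes). In CE+BZA against CE, 0 were higher and 12 lower (7.11 and 7.31% of all genes). The cytochrome P450 genes Cyp3a44 (2.60 and −2.10) and Cyp3a41a (1.29 and −2.22) and the magnesium transporter gene Nipal1 (1.51 and −2.30) had the directions of Enho in CE against Veh and in CE+BZA against CE. Reads may be split between Cyp3a44, Cyp3a41a and other near-identical genes. A1bg differed by 0.04 and −2.17. Of 51 male-biased genes, 23 were listed. By the same rule, 4 were higher and 5 lower in CE than in Veh (10.1 and 8.45% of all genes). In CE+BZA against CE, 6 were higher and 1 lower (7.11 and 7.31% of all genes). Socs2, an inhibitor of growth hormone signaling, had the directions of Enho, with 2.21 (SE 0.58) and −2.84 (SE 0.58). Cml5 (−2.03 and 3.90) and Cyp4a12a (−3.02 and 3.11), at their lowest values in 3 and 4 mice, were opposite to Enho. The growth factor receptor gene Egfr differed by 2.24 and 0.16. Of 27 genes raised by estrogen receptors elsewhere, 11 were listed, of which 3 were higher in CE than in Veh and 0 lower (10.1 and 8.45% of all genes). In CE+BZA against CE, 3 of the 11 were lower and 0 higher (7.31 and 7.11% of all genes). Ltf (3.39 and −3.52) and Susd3 (1.53 and −1.63) were in both counts, like Enho in direction, and at their lowest values in 4 and 2 mice. Junb was 1.502 higher in CE than in Veh, and the estrogen sulfotransferase gene Sult1e1 differed by −2.26 between CE+BZA and CE. None of these genes passed the FDR in the 2 comparisons by limma (Socs2 had an FDR of 0.0769 in CE+BZA against CE). Over the 9 lists, 37 of the 102 listed genes passed by the unadjusted rule in CE against Veh (18.6% of all genes) and 30 in CE+BZA against CE (14.4%). The lists were made with earlier results of these data known and the table is a selection, so these shares say nothing particular about the lists.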

How the data were processed

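Liver RNA-seq of 15 mice was used, each mouse a separate sample (n = 3 per group). According to the methods, the reads were trimmed, mapped with TopHat (version 0.5 per the labels, builds mm10 and hg19 listed without a role), quantified with StrandNGS, partial reads and new genes and exons included, and normalized with DESeq. The authors deposited log2 values relative to the median of each gene, which was 0 in all 2545 genes. The filter behind these genes and the depth per mouse are not given in the sources used here. The labels speak of 2 samples per group, whereas the table has 3. All columns were matched to samples by title (0 left over), and 0 pairs of mice were identical.

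No filter, further scaling or pseudocount was applied. A 5-group linear model was fitted to all 2545 genes and 15 mice with lmFit and eBayes (limma 3.58.1, R 4.3.3), with Benjamini-Hochberg adjustment over all genes. The rules for a call were a fold change above 2 with an FDR under 0.05, or with an unadjusted p under 0.05. The fit was first tested on simulated data, with normal noise and no values tied at the lowest. Of 200 genes raised in CE, the FDR rule found 0 at a log2 shift of 1, 66 at 2 and 180 at 3. Genes that did not pass the FDR may thus still differ. Correlations and ranges were computed with Python 3.11.15. Annotation by symbol came from GENCODE M21 and RefSeq (GRCm38).

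Enho, the gene lists and the naming rule were chosen with earlier results of these data known. Named genes were the 5 highest and 3 lowest by r with Enho, the 3 nearest listed genes on each side within 1 Mb, all listed genes of the adropin, receptor and clock lists, and up to 4 of the smallest p in each other list. One gene with an immunoglobulin name is given by its class. S100a8, S100a9, Alox12 and the cell type markers were named after their values were seen. Mouse numbers recur between groups, but the animals differ, and the alternatives included a replicate block.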

Additional observations from a re-analysis of the deposited data

Results flagged for a closer look

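Trim10, an erythroid gene, deviated from the sum of the CE and BZA differences by −5.18 (SE 0.92, FDR 0.0307 by limma over all genes). It differed by 2.56 in CE against Veh and by −2.56 in CE+BZA against CE, the directions of Enho. Unlike Enho, it was at its lowest value in all Veh and CE+BZA mice, 6 of the 15 mice. These values thus depend on how low values were set in the table.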

How the results depend on the processing

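The 11 Enho differences were recomputed in 220 settings. Many settings left out a mouse of a group outside the comparison, which cannot change the difference, so the number of settings overstates the stability. In 219 of the 220, the value kept its direction and moved by less than the pooled SD within groups (0.67). The exception was BZA minus E2, at 0.11 without BZA mouse 1 (range −0.92 to 0.11 over the single mice left out). The mouse numbers do not pair animals. Of 13 pairs of same-numbered mice from different groups, 0 had a correlation of deviations over 0.1 (−0.0486 to 0.098). With the replicate block, CE minus Veh was 3.50, CE+BZA minus CE −2.14 and the deviation from additivity −4.34. Veh and CE shared 1 number only, as did CE and CE+BZA.

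The counts of list genes were less stable. By the unadjusted rule, 37 passed in CE against Veh (28 to 38 with a mouse left out) and 20 with the replicate block. In CE+BZA against CE, 30 passed (16 to 30) and 8 with the block. The lowest counts were 16 without CE mouse 7 and 18 without CE+BZA mouse 2. By the FDR, 1 gene (Mogat1) passed in CE against Veh (0 to 2 with a mouse left out, 2 without BZA mouse 3 or 4), and 2 with quantile normalization or without genes that had 2 or more mice at the lowest value, and 0 with only the groups compared or with the block. In CE+BZA against CE, 0 passed by limma (0 to 1, the 1 without BZA mouse 1), 2 with quantile normalization and 1 without the genes at the lowest value. The FDR of Mogat1 was 0.0127 to 0.328 over 22 alternatives and under 0.05 in 12. It was above 0.05 without any 1 of the Veh mice (0.116 to 0.163), CE mice 6 or 3 (0.117 and 0.116), E2 mouse 5 (0.0606) or CE+BZA mice 1 or 2 (0.0609 and 0.0666). Of the 8 genes most like or opposite to Enho, 2 were also among the 8 by Spearman rho, 1 with quantile normalization, and 2 to 7 with a mouse left out. Without Veh mice 7, 1 or 4 the overlap was 5, 3 and 2 genes, without CE mouse 3 it was 2, and without BZA mouse 1, BZA mouse 4 or CE+BZA mouse 3 it was 5, so these names depend on single mice. The cause of these changes was not tested. The depth of the mice is unknown, which limits what can be said of low genes such as Dnaic1.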
